A study of Mus musculus with 6 samples.

Results

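Death receptors of the TNF receptor superfamily and the adaptors that act inside the cell below them were followed in mouse ovarian granulosa cells (GCs), the somatic cells that surround and nourish the oocyte. The 10 genes were taken by name from the 54532 genes of the expression table: the receptors Fas, Eda2r, Tnfrsf10b, Tnfrsf1a, Tnfrsf12a, Tnfrsf19 and Tnfrsf21, and the adaptors and regulators Fadd, Tradd and Cflar. All 10 symbols were found once. GCs came from ICR female mice aged 3 weeks that had received 5 IU of PMSG, a gonadotropin that drives follicle growth, 22 h before treatment. Control mice were then given PBS, and treated mice were given one intraperitoneal dose of 120 mg/kg cyclophosphamide (CTX), an alkylating chemotherapy drug that damages DNA. GCs were collected 6 h later, and RNA-seq was done on 3 samples per group, each a pool of the GCs of 3 mice. Every mouse in both groups had thus been primed with PMSG, and the measurements describe primed follicles at a single time and dose. The comparison of CTX with PBS asks which genes change in GCs early after the drug.

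Death receptors are membrane proteins that bind ligands of the TNF family on neighbouring cells or in the fluid around them. A receptor with a death domain in its tail can recruit Fadd, either directly or by way of Tradd. Fadd in turn gathers caspase-8, which starts the caspase cascade. Cflar (c-FLIP) resembles caspase-8 without its activity and competes for the same platform. In the ovary, this extrinsic route is best known from atresia, the loss of follicles through GC death. Fas, Tnfrsf10b (the mouse TRAIL receptor), Tnfrsf1a (the main receptor for TNF) and Tnfrsf21 (death receptor 6) carry a death domain. Eda2r (the receptor for the A2 form of ectodysplasin), Tnfrsf12a (Fn14, the receptor for TWEAK) and Tnfrsf19 (TROY) do not, so that for these the name death receptor is used loosely. Fas, Tnfrsf10b and Eda2r are textbook targets of the transcription factor p53.

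Eda2r and Tnfrsf10b rose in CTX-treated GCs, to 9.81 and 2.47 times their mean PBS levels, respectively. The mean level of Fas in the CTX samples was 7.24 times that in PBS, where it rested on 1 to 8 reads per sample, and the difference did not pass the test. Tnfrsf1a and Tnfrsf12a, by far the most abundant of the 7 receptors, had mean CTX levels 1.11 and 1.24 times those in PBS, and neither passed. The 3 genes that act inside the cell, Fadd, Tradd and Cflar, overlapped between the groups. Levels are given as FPKM (fragments per kilobase of gene, scaled to sequencing depth). They use a single length per gene, whichever of its transcripts were present, so that comparisons of levels between genes are approximate. A gene was called changed when its adjusted p in limma was below 0.05 and it differed more than 2-fold. In bulk RNA, fewer cells of a type and less RNA per cell cannot be told apart.

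Depth was similar in both groups. Each sample held between 16005869 and 18455011 reads on genes, as rebuilt from FPKM and gene length, and for a gene of 1 kb a count of 3 reads equals 0.164 to 0.185 FPKM. CTX replicate 2 stood apart from the other samples, with a score of 74.7 on the first principal component against -26.6 to 13.2 in the others. The GC markers summed to 11466 to 12648 FPKM in PBS and 10248 to 10955 in CTX, most of it from Inha, and all 9 were detected in every sample. Within the list, Cyp19a1 (aromatase) was at 59.2 to 62.4 FPKM in PBS and at 47.6, 6.61 and 32.5 in CTX, and Inhba at 754 to 902 FPKM in PBS and at 665, 211 and 487 in CTX. Amh went the other way, at 48.4 to 51.1 FPKM in PBS and 54.3, 179 and 85.5 in CTX, and Fst overlapped between the groups. Fshr, Cyp19a1, Foxl2, Inha, Inhba and Gja1 had every CTX sample below every PBS sample, a pattern seen in 14.1% of all genes tested. Foxl2 was at 184 to 193 FPKM in PBS and at 145, 76.9 and 107 in CTX. Of these 9 markers, 1, Amh, was higher in mean log2 level in CTX, and 0 were called in limma or voom. Over all genes tested, 0.802% were called higher and 0.159% lower in limma. Fshr, Foxl2 and Inhba, 3 of the 9, had an unadjusted p below 0.05 in limma, all lower. The share of all genes that were lower at this level was not counted, so this number cannot be set against it. Summed leukocyte markers were 17.7 to 20.3 FPKM in the PBS samples, and 31.6, 60.2 and 22.5 in CTX replicates 1, 2 and 3. Most of each sum was Lyz2, at 13.1 to 14.3 FPKM in PBS and 22.9, 45.8 and 14.7 in CTX, while Adgre1 and Itgam overlapped between the groups. All 4 tested leukocyte markers were higher in mean log2 level in CTX and 1, Cd14, was called (0 with voom), while the leukocyte antigen Ptprc stayed between 0.06 and 0.10 FPKM in every sample. The theca markers summed to 35.6 to 38.3 FPKM in PBS and to 34.3, 8.87 and 18.0 in CTX. Most of the PBS sum was Cyp17a1, at 30.8 to 34.4 FPKM in PBS and 29.6, 1.25 and 12.4 in CTX. The other 2 tested theca markers, Ptch1 and Insl3, were higher in mean log2 level in CTX. The endothelial markers summed to 4.84 to 5.57 FPKM in PBS and to 4.18, 1.97 and 4.38 in CTX. Most of this was Cdh5, which alone was tested. Kdr, too low to be tested, was also lower without overlap, at 0.217 to 0.261 FPKM in PBS and 0.0624 to 0.216 in CTX. Pecam1, Tek, Tie1 and Emcn overlapped between the groups. The theca and endothelial sums thus lay below PBS, with CTX replicate 2 the lowest. The stroma markers summed to 12.6 to 13.4 FPKM in PBS and to 25.2, 6.00 and 20.1 in CTX, on both sides of PBS. Oocyte markers summed to 27.3 to 56.9 FPKM in PBS and 35.5 to 62.5 in CTX. Erythrocyte markers summed to 299 to 429 FPKM in PBS and to 341, 130 and 467 in CTX. The part of these differences in the results was not tested.

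The sequence upstream of the start of Eda2r and Fas is given because these members had the largest log2 fold changes on log2(FPKM + 0.1), although Fas was not called and on log2(FPKM + 1) stood below Tnfrsf10b (0.95 against 1.10). Each run holds the 250 bases before the RefSeq start on GRCm38.p6, read from 5′ to 3′ along the gene's own strand. Capitals mark matches, on either strand, to the TATAAA box, the GGGCGG box, the CCAAT box or the AP-1 letters TGANTCA, and none of the matches overlap in these windows. The Eda2r window is chrX:97377210-97377459 on the minus strand and the Fas window is chr19:34290409-34290658 on the plus strand.
Eda2r: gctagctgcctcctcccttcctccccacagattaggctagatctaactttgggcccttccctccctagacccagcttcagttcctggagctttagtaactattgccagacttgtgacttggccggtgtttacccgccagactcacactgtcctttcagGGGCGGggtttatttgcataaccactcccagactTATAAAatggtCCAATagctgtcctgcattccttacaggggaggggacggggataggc
Fas: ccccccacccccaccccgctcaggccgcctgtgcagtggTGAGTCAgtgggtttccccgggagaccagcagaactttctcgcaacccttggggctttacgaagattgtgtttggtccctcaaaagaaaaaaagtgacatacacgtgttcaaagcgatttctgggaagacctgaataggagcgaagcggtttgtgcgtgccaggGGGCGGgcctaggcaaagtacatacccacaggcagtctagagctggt

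The Eda2r window held a TATAAA box at positions -58 to -53 from the start, a CCAAT box at -47 to -43 and a GGGCGG box at -92 to -87. The Fas window held a GGGCGG box at -47 to -42 and the AP-1 letters TGANTCA at -211 to -205. Over all 32851 RefSeq windows of this length, 12.4% held the TATAAA box, 33.8% the CCAAT box, 32.7% the GGGCGG box and 6.75% the AP-1 letters. RefSeq windows were found for 8 of the 10 genes, as 9 windows, since Tnfrsf19 has 2 starts. Tnfrsf12a, the most abundant of the 7 receptors, had 5 GGGCGG matches, one window of Tnfrsf19 had 3, Fadd had 2 and Tnfrsf21 had 1, while Cflar had 2 overlapping TATAAA matches on opposite strands. No window of the 9 matched the consensus p53 decamer or the NF-kB site, which 7.13% and 3.90% of all windows matched. This says only that these letters are not in these 250 bases. GC content was 53.2% for Eda2r and 56.4% for Fas, against a median of 52.4% over all windows.

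Eda2r (ENSMUSG00000034457, GRCm38 chrX:97333840-97377216, minus strand) was the member with the largest log2 fold change. Its level was 1.32, 1.26 and 1.18 FPKM in PBS replicates 1, 2 and 3, and 14.2, 10.2 and 12.6 FPKM in CTX replicates 1, 2 and 3. The groups were far apart, and the lowest CTX sample, replicate 2, still held 8.11 times the PBS mean. These levels rested on 139, 136 and 113 reads in the PBS samples and on 1511, 1064 and 1331 reads in the CTX samples. The log2 fold change was 3.18 with a SE of 0.14 (limma on log2(FPKM + 0.1), adjusted p = 7.9e-04), and the 95% interval ran from 7.22-fold to 11.4-fold. In PBS, Eda2r was a minor receptor, at the level of Tnfrsf21. In CTX it was, by its mean, the third most abundant of the 7 receptors. Without CTX replicate 2 its log2 fold change was 3.31 (limma, adjusted p = 1.1e-04). CTX replicate 3, whose leukocyte marker sum of 22.5 FPKM was closest to the PBS range, had an Eda2r level of 12.6 FPKM. Whether the Eda2r level was related to the leukocyte markers, or to the stroma markers, was not tested.

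Tnfrsf10b (ENSMUSG00000022074, chr14:69767472-69784411, plus strand) was the other gene called. Its level was 3.51, 4.19 and 3.73 FPKM in the PBS samples and 10.8, 7.73 and 9.70 FPKM in the CTX samples. Every CTX sample was above every PBS sample, with CTX replicate 2 again the lowest of its group at 2.03 times the PBS mean. Tnfrsf10b had from 329 to 419 reads in PBS and from 748 to 1062 in CTX. The log2 fold change was 1.27 with a SE of 0.14 (limma, adjusted p = 0.012), and the interval of 1.91-fold to 3.05-fold includes the 2-fold threshold. Its call was lost without any one of 4 samples. The adjusted p in limma was 0.081, 0.052 and 0.088 without PBS replicate 1, 2 or 3 and 0.079 without CTX replicate 3, with log2 fold changes between 1.22 and 1.34. With the replicate number as a block, an analysis in which same-numbered samples are paired, the adjusted p was 0.109 (limma) at the same log2 fold change of 1.27. Without CTX replicate 2 it was called, with a log2 fold change of 1.40 (limma, adjusted p = 0.0023).

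Fas (ENSMUSG00000024778, chr19:34290659-34327770, plus strand) was the least abundant member in PBS. Its level was 0.249, 0.242 and 0.0343 FPKM in the PBS samples, from 8, 8 and 1 reads. In the CTX samples it was 1.41, 0.970 and 1.43 FPKM, from 46, 31 and 46 reads. Every CTX sample was above every PBS sample, and the exact 95% Poisson intervals of the single samples, which cover counting error only, did not meet either, since the highest PBS bound was 0.491 FPKM and the lowest CTX bound 0.659 FPKM. The log2 fold change was 2.42 with a SE of 0.47 (limma, adjusted p = 0.072), so that Fas was not called. It reached the 0.5 FPKM mean required for testing only through the CTX samples, because its PBS mean was 0.175 FPKM.

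The size of the Fas difference depended on how its low PBS values were handled. PBS replicate 3 rested on 1 read, for which the counting interval ran from 0.0253 to 5.57 reads. On log2(FPKM + 1) the log2 fold change of Fas was 0.95 (limma, adjusted p = 0.032), below the 2-fold threshold, and limma's voom on the rebuilt reads gave 3.00 (adjusted p = 0.066). Without PBS replicate 3 the log2 fold change was 1.97 (limma, adjusted p = 0.106). Fas was called with quantile normalization (log2 fold change 2.57, limma adjusted p = 0.017) and with sample weights (2.42, limma adjusted p = 0.0017), whose estimation stopped before it had converged.

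Tnfrsf12a (ENSMUSG00000023905, chr17:23675445-23677468, minus strand) had the highest level of the 7 receptors in both groups. It measured 34.0, 32.9 and 36.0 FPKM in the PBS samples and 41.4, 42.8 and 43.7 FPKM in the CTX samples. The difference was small beside those of Eda2r and Tnfrsf10b, with a log2 fold change of 0.31 and a SE of 0.06 (limma, adjusted p = 0.077). Its 95% interval ran from 1.12-fold to 1.38-fold. It met neither criterion for a call, although every CTX sample was above every PBS sample.

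Tnfrsf1a (ENSMUSG00000030341, chr6:125349362-125362484, plus strand), the second most abundant of the 7, measured 29.9, 29.2 and 30.2 FPKM in PBS and 35.0, 31.2 and 32.8 FPKM in CTX. Its groups nearly met, PBS replicate 3 lying just below CTX replicate 2, and the log2 fold change was 0.15 with a SE of 0.07 (limma, adjusted p = 0.27). Its interval ran from 0.99-fold to 1.24-fold. Tnfrsf21 (ENSMUSG00000023915, chr17:43016555-43089189, plus strand) measured 1.46, 1.18 and 1.20 FPKM in PBS and 1.73, 2.46 and 1.56 FPKM in CTX. Here CTX replicate 2 was the highest sample, unlike for Fas, Eda2r and Tnfrsf10b, where it was the lowest of the CTX samples. The log2 fold change of Tnfrsf21 was 0.53 with a SE of 0.21 (limma, adjusted p = 0.24), and 0.34 without CTX replicate 2.

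Tnfrsf19 (ENSMUSG00000060548, chr14:60963875-61046490, minus strand) was too low to be tested. It measured 0.23, 0.26 and 0.34 FPKM in PBS and 0.33, 0.30 and 0.55 FPKM in CTX, from 19 to 47 reads. The groups overlapped, and in a fit without the filter its log2 fold change was 0.36 (limma, adjusted p = 0.64).

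**Figure D1:**
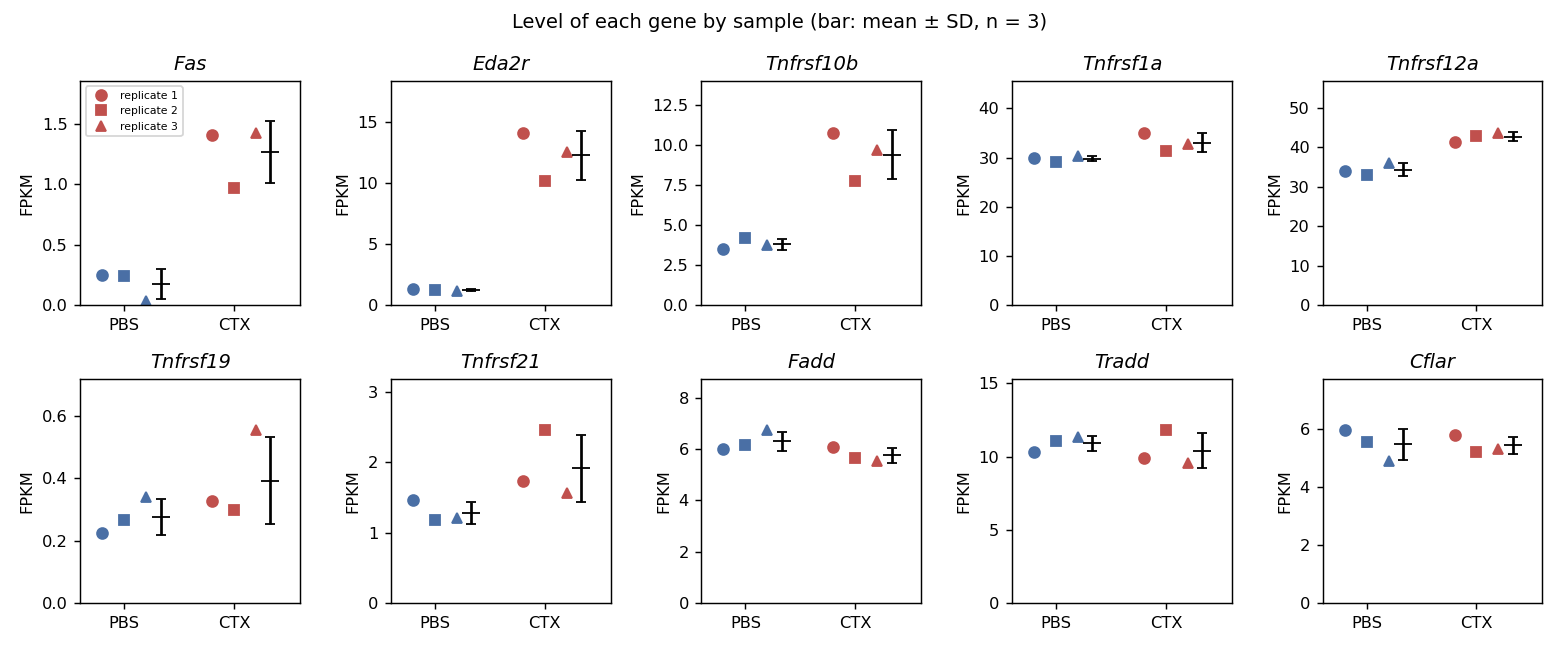
FPKM (linear axis from 0) of the 10 genes in the 3 PBS samples (blue) and the 3 CTX samples (red), with marker shape giving the replicate number and the black bar the mean ± SD. Eda2r, Tnfrsf10b and Fas sit well above PBS in all 3 CTX samples, with CTX replicate 2 (square) the lowest of the CTX samples, while Fadd, Tradd and Cflar overlap.

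The adaptors showed no separation between the groups. Fadd (ENSMUSG00000031077, chr7:144577318-144582463, minus strand), an adaptor of death-domain receptors, measured 5.99, 6.16 and 6.72 FPKM in PBS and 6.08, 5.65 and 5.52 FPKM in CTX. Its log2 fold change was -0.13 with a SE of 0.08 (limma, adjusted p = 0.42). The interval of 0.80-fold to 1.05-fold does not reach a 2-fold change in either direction.

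Tradd (ENSMUSG00000031887, chr8:105258286-105264609, minus strand), which links Tnfrsf1a to Fadd and to the kinase Ripk1, measured 10.31, 11.05 and 11.31 FPKM in PBS and 9.91, 11.8 and 9.54 FPKM in CTX. The PBS values lay within the range of the CTX values. The log2 fold change of Tradd was -0.07 with a SE of 0.10 (limma, adjusted p = 0.71), and its interval ran from 0.81-fold to 1.12-fold. Cflar (ENSMUSG00000026031, chr1:58711508-58758884, plus strand), the inhibitor of the pathway, measured 5.93, 5.55 and 4.88 FPKM in PBS and 5.77, 5.19 and 5.31 FPKM in CTX. Its log2 fold change was -0.01 with a SE of 0.10 (limma, adjusted p = 0.98), with an interval of 0.84-fold to 1.18-fold. Of the members tested, Cflar had the log2 fold change closest to 0.

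Of the 10 genes, 9 could be tested and 2 were called, both higher in CTX. Over all 14463 genes tested, 0.802% were called higher and 0.159% lower. No further member passed on adjusted p alone, a criterion met by 1.40% of all genes in the higher and 0.360% in the lower direction, and 5 members had an unadjusted p below 0.05 in limma, all higher in CTX, against 10.5% of all genes tested. All 6 tested receptors had every CTX sample above every PBS sample, a pattern seen in 15.0% of all genes tested, with 14.1% showing the opposite. None of the 9 members showed the opposite pattern, and the remaining 3, the adaptors, overlapped. The 6 receptors kept this pattern when the samples were scaled to library totals (12.4% of all genes) or by quantile normalization (14.8%). Fas passed the filter only through its CTX samples. Without it, the pattern held for 5 of 5 receptors and the median log2 fold change of the 8 members was 0.23. The exact permutation test gave p = 0.10 for each separated gene, which is the smallest value that 3 samples against 3 allow. The median log2 fold change of the 9 members was 0.31, compared with -0.01 for all genes tested, and these counts describe genes chosen with earlier results known.

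The order of the levels differed between the groups, mainly through Eda2r and Tnfrsf10b. In PBS it ran from Tnfrsf12a through Tnfrsf1a, Tradd, Fadd, Cflar and Tnfrsf10b, each without overlap with the next, to Tnfrsf21 and Eda2r, which overlapped, and then to Tnfrsf19 and Fas, which also overlapped. In CTX, Tnfrsf12a and Tnfrsf1a were again at the top. They were followed by Eda2r (12.3 ± 2.00 FPKM, SD, n = 3), Tradd (10.4 ± 1.20) and Tnfrsf10b (9.39 ± 1.53), each of which overlapped the next. Fadd and Cflar overlapped below these, and Tnfrsf21, Fas and Tnfrsf19 came last without overlap. Thus Eda2r and Tnfrsf10b, both below the adaptors Fadd and Cflar in PBS, were above them in CTX in every sample.

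The 7 receptors together summed to 70.9 ± 1.75 FPKM in PBS and to 100.9 ± 4.73 FPKM in CTX (SD, n = 3). The share of Eda2r in this sum was 1.77% ± 0.13 in PBS and 12.2% ± 1.44 in CTX. Tnfrsf10b went from a share of 5.38% ± 0.59 to 9.27% ± 1.10, and Fas from 0.25% ± 0.18 to 1.25% ± 0.21. Tnfrsf12a and Tnfrsf1a still made up most of the sum, although the share of Tnfrsf12a was 48.4% ± 1.02 in PBS and 42.3% ± 2.63 in CTX, and that of Tnfrsf1a was 42.0% ± 0.38 and 32.7% ± 0.68. In FPKM, neither was lower in any CTX sample than in any PBS sample. Shares of transcripts say nothing of how much receptor stood on the cell surface.

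**Figure D2:**
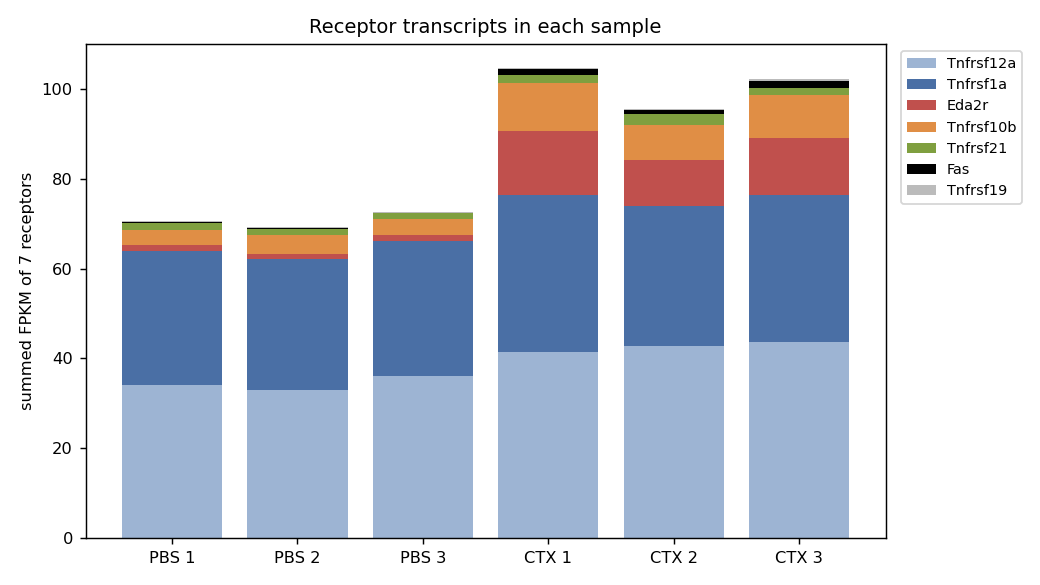
Stacked FPKM of the 7 receptors in each of the 6 samples, on a linear axis from 0. The PBS columns reach 69.2 to 72.7 FPKM and the CTX columns 95.7 to 104.8 FPKM, with Eda2r (red) a thin band in PBS and a broad one in CTX.

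Most ligands of these receptors were low in the same RNA. Fasl, the ligand of Fas, had 0 reads in all PBS samples and in CTX replicates 1 and 3, and 2 reads in CTX replicate 2. A count of 0 allows for up to 3 reads, the one-sided 95% limit for counting error. Tnf and Lta, the ligands of Tnfrsf1a, were below the level required for testing, Tnf with 2, 2 and 1 reads in PBS and 8, 5 and 14 reads in CTX, and Lta with at most 3 reads in any sample.

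Among the ligands that could be tested, none was called. Eda, whose A2 form binds Eda2r, measured 0.55, 0.55 and 0.63 FPKM in PBS and 0.52, 0.55 and 0.29 FPKM in CTX (log2 fold change -0.33, SE 0.33, limma adjusted p = 0.59). FPKM per gene does not tell the A1 and A2 forms of Eda apart. Tnfsf10 (TRAIL), the ligand of Tnfrsf10b, measured 0.56 to 0.58 FPKM in PBS and 0.29, 1.37 and 0.70 FPKM in CTX, where the samples lay on both sides of PBS. Tnfsf12 (TWEAK), the ligand of Tnfrsf12a, measured 1.93, 3.02 and 2.93 FPKM in PBS and 3.35, 1.12 and 2.06 FPKM in CTX. Its groups overlapped as well, and its level was far below that of its receptor in every sample. Over the list of 18 TNF family ligands, 4 were tested and 0 were called in limma or voom, none with an unadjusted p below 0.05 in limma, with a median log2 fold change of -0.35. The fourth, Tnfsf9, measured 2.04 to 2.49 FPKM in PBS and 3.08, 0.70 and 1.95 FPKM in CTX. Of the 14 not tested, 9 had at most 3 reads in every sample. With 0.802% of all genes tested called higher and 0.159% lower, 0 calls among 4 genes is near that share.

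Of the 21 other receptors of the superfamily, 9 were tested and 0 were called in limma or voom. None had an unadjusted p below 0.05 in limma, and the median log2 fold change was -0.15. As 0.802% of all genes tested were called higher and 0.159% lower, 0 calls in a list this short is near that share. Only Tnfrsf1b, the second TNF receptor, had all CTX samples above PBS among the 9, at 8.37 to 8.92 FPKM in PBS and 9.14 to 10.5 FPKM in CTX. Ltbr, the lymphotoxin beta receptor, was more abundant than any of the 7 receptors in PBS, at 40.6 to 43.9 FPKM, and measured 38.5 to 43.7 FPKM in CTX (log2 fold change -0.02, SE 0.07, limma adjusted p = 0.90). Tnfrsf1b and Ltbr were named after their values were seen. Edar, the receptor for the A1 form of ectodysplasin, measured 0.88, 0.67 and 0.90 FPKM in PBS and 1.03, 0.05 and 1.38 FPKM in CTX, so that CTX replicate 2 alone was low. Its log2 fold change was -0.54 (SE 0.87, limma adjusted p = 0.74), and 0.51 without CTX replicate 2. In mice, the products of Tnfrsf22 and Tnfrsf23 bind TRAIL without a death domain and act as decoys, and Tnfrsf26 is their neighbour in the same gene cluster. Tnfrsf23 measured 0.45, 0.67 and 0.84 FPKM in PBS and 0.43, 0.46 and 0.39 FPKM in CTX (log2 fold change -0.49, SE 0.32, limma adjusted p = 0.42). The ratio of Tnfrsf10b to the sum of these 3 genes was 2.03, 1.94 and 1.91 in PBS and 6.26, 4.02 and 6.78 in CTX, without overlap between the groups. The sum itself was 1.73, 2.16 and 1.95 FPKM in PBS and 1.72, 1.93 and 1.43 in CTX, with overlap. The separation of the ratio thus mainly restates the rise of Tnfrsf10b.

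The partners of Fadd and Tradd overlapped between the groups. Casp8, the initiator caspase, lies next to Cflar on chromosome 1 and measured 11.5, 11.4 and 12.7 FPKM in PBS and 11.2, 13.2 and 11.8 FPKM in CTX. Its log2 fold change was 0.02 with a SE of 0.09 (limma, adjusted p = 0.92). The ratio of Casp8 to Cflar was 1.94, 2.05 and 2.60 in PBS and 1.94, 2.55 and 2.21 in CTX, with overlap. Ripk1, the kinase bound by Tradd, measured 3.40 to 3.69 FPKM in PBS and 3.32 to 3.55 FPKM in CTX (log2 fold change -0.04, SE 0.09, limma adjusted p = 0.81).

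**Figure D3:**
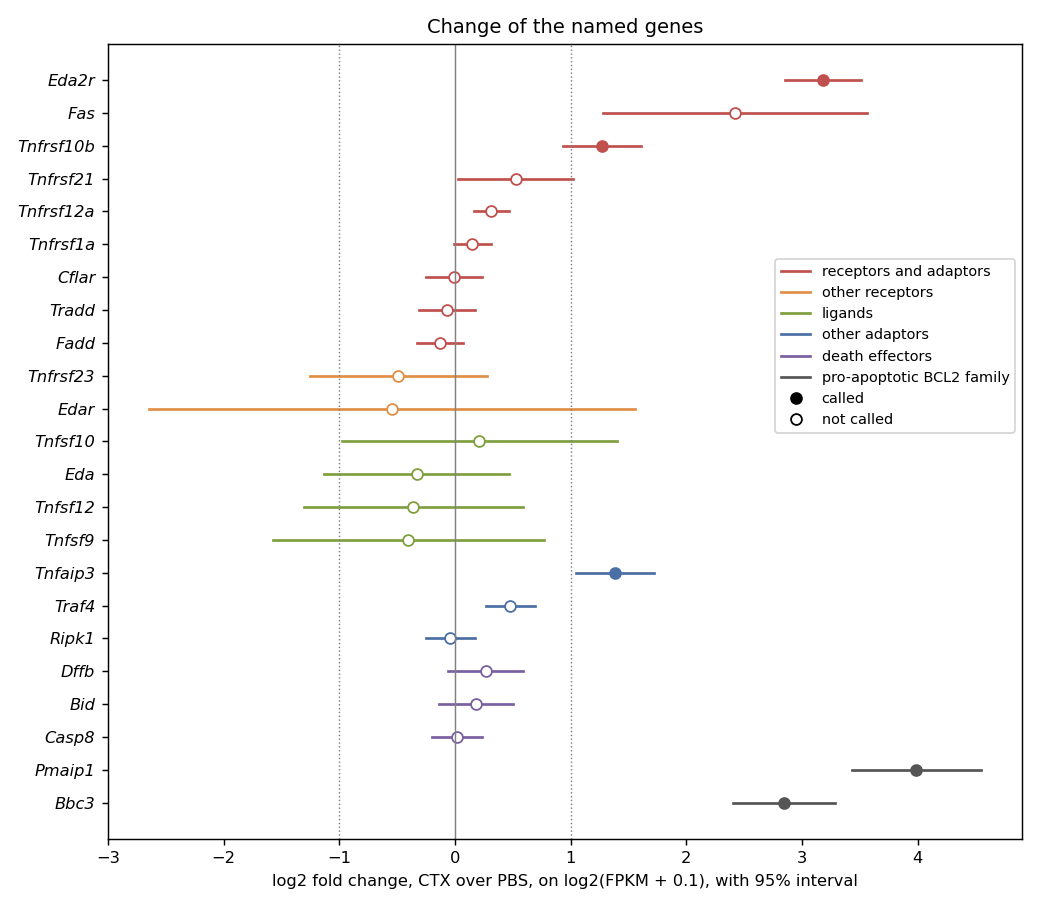
Log2 fold change of CTX over PBS, on log2(FPKM + 0.1), with the 95% interval, for the named genes that were tested, coloured by list, with filled points for called genes and dotted lines at 2-fold. Eda2r and Tnfrsf10b are the called members, Fas has a wide interval, and the intervals of Fadd, Tradd, Cflar, Casp8 and Ripk1 are narrow and cross 0.

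Further down, the adaptor list of 24 genes had 22 tested and 1 called, and 4 had an unadjusted p below 0.05 in limma, 3 of them higher. Over all genes tested, 0.802% were called higher and 0.159% lower, and 10.5% were higher with an unadjusted p below 0.05. The called gene was Tnfaip3 (A20), an enzyme that edits ubiquitin and restrains signalling from Tnfrsf1a. It rose from 0.84, 1.05 and 0.96 FPKM in PBS to 2.64, 2.49 and 2.75 FPKM in CTX, with a log2 fold change of 1.38 and a SE of 0.14 (limma, adjusted p = 0.0080). Tnfaip3 was no longer called without PBS replicate 3 (limma, adjusted p = 0.058) or CTX replicate 3 (0.066), with the replicate block (0.093), or on log2(FPKM + 1), where its log2 fold change was 0.90. Traf4, an adaptor of the TRAF family, measured 20.9 to 22.1 FPKM in PBS and 26.6 to 32.2 FPKM in CTX (log2 fold change 0.48, SE 0.09, limma adjusted p = 0.059). Rbck1, a part of the linear ubiquitin ligase, passed on adjusted p alone (log2 fold change 0.39, SE 0.06, limma adjusted p = 0.043). In this list 5 tested genes had all CTX samples above PBS and 3 had all below, against the 15.0% and 14.1% of all genes given above, and the median log2 fold change was -0.02.

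The 9 death effectors reported here were all tested. In limma and in voom 0 of them were called, and none had an unadjusted p below 0.05 in limma. For so few genes 0 calls is near the share of all genes tested, 0.802% called higher and 0.159% lower. Dffb, a nuclease that cuts DNA during apoptosis, measured 3.59, 3.62 and 3.41 FPKM in PBS and 3.76, 4.02 and 5.16 FPKM in CTX, without overlap (log2 fold change 0.26, SE 0.13, limma adjusted p = 0.32). Bid, which caspase-8 cleaves to link the receptors to mitochondria, measured 4.57, 4.46 and 4.78 FPKM in PBS and 4.57, 6.33 and 4.94 FPKM in CTX, where only CTX replicate 2 was well above the rest (log2 fold change 0.18, SE 0.13, limma adjusted p = 0.47). Without CTX replicate 2 the log2 fold change of Bid was 0.0453. The median log2 fold change of these 9 genes was 0.06.

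The pro-apoptotic BCL2 family genes, which act at mitochondria and not through Fadd, gave the other calls. Of 10 genes, 8 were tested and 2, Bbc3 (PUMA) and Pmaip1 (NOXA), were called higher, and 3 had an unadjusted p below 0.05 in limma, all higher. The remaining one was Bax, a pore-forming member, at 29.6, 34.1 and 37.0 FPKM in PBS and 58.7, 54.4 and 63.9 FPKM in CTX, which passed on adjusted p but not on fold (log2 fold change 0.81, SE 0.11, limma adjusted p = 0.021). Bax and Rbck1 were also named after their values were seen. Bbc3 was at 2.77, 2.77 and 2.12 FPKM in PBS and 20.2, 14.8 and 22.3 FPKM in CTX, with a log2 fold change of 2.84 (SE 0.18, limma adjusted p = 0.0015). Pmaip1 was at 0.12 to 0.13 FPKM in PBS and 3.98, 2.75 and 3.69 FPKM in CTX, with a log2 fold change of 3.99 (SE 0.23, limma adjusted p = 0.0012), and passed the filter only through the CTX samples. CTX replicate 2 was the lowest of the CTX samples for both, as it was for Eda2r, Tnfrsf10b and Fas. The median log2 fold change of the 8 was 0.23. Bbc3, Pmaip1 and Tnfaip3 were the 3 called genes of the 82 reported from the 5 wider lists, 52 of which were tested. The shares over all genes tested were 0.802% called higher, 0.159% called lower, and 10.5% higher with an unadjusted p below 0.05 in limma.

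**Figure D4:**
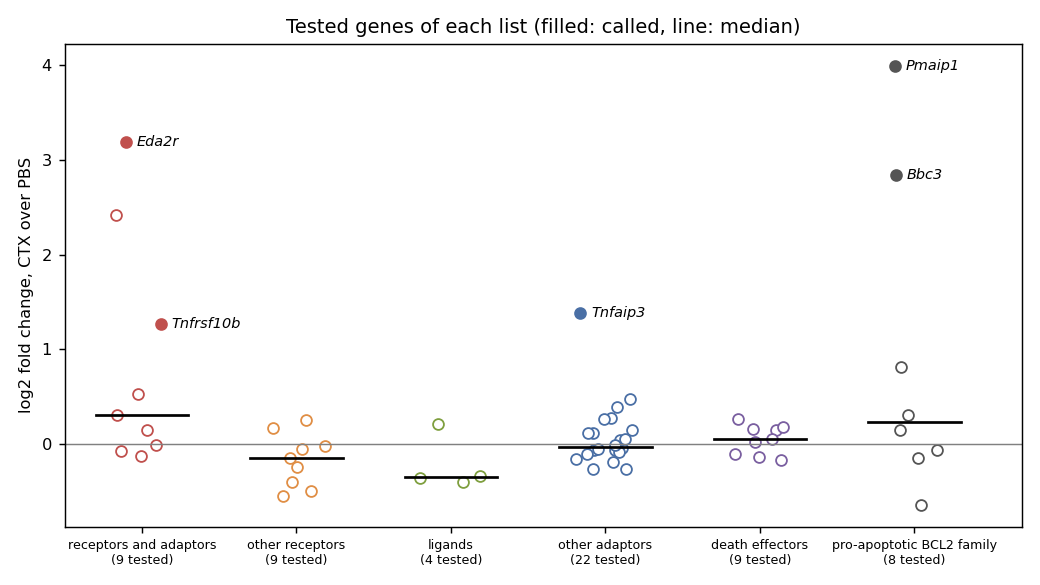
Log2 fold change of CTX over PBS for each tested gene of the receptors and adaptors and of the 5 wider lists, with filled points and names for called genes and a line at the median. The called genes are few in each list, and the medians lie between -0.35 and 0.31.

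Overlapping gene models touch few of these values. Fas and Tnfrsf19 each overlap a predicted gene with 0 reads in all samples, Fadd overlaps its antisense gene Faddos, which had 10 reads over the 6 samples, and the other 7 genes overlap none. Whether strand was used in counting is not given in the sources used here, so that reads of Fadd and Faddos cannot be told apart.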

How the data were processed

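Values were FPKM per gene, which the authors deposited for all 6 samples with Ensembl identifiers and GRCm38 coordinates. The submitters' processing notes name CASAVA 1.8, fastp, HISAT2 2.0.5, featureCounts 1.5.0-p3, DESeq2 1.20.0 and mm10, without their roles, and strandedness is not given in the sources used here. Multiplied by gene length, 100% of the deposited FPKM values were whole multiples of 1 read within 0.05 read, so reads could be rebuilt. They also carry a scaling between samples with factors of 0.970 to 1.02. The authors' own comparison columns (group means, fold changes, p-values) were not used.

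Genes with a mean of at least 0.5 FPKM were compared as log2(FPKM + 0.1), which understates changes of low genes, with limma 3.58.1 (lmFit, eBayes with trend) in R 4.3.3. P-values were two-sided and adjusted by Benjamini-Hochberg over all 14463 genes. Intervals are at 95%. The fit was tested on simulated data whose spread was taken from the PBS samples only. The CTX replicates differed more, with a mean chi-square per gene between replicates of 15.1 to 72.5, against 3.81 to 6.62 in PBS. The simulation therefore does not cover the spread of the CTX samples. Python 3.11.15, pandas 2.3.3, NumPy 2.4.6, SciPy 1.17.1 and matplotlib 3.10.9 were also used.

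Members and lists were chosen with earlier results of these data known. Named were all members, the ligands that bind them, Casp8 and Ripk1, and from each wider list every called gene and the 2 tested genes with the largest absolute log2 fold change, among the genes reported. Some genes of the effector list are not reported here. Alternatives were pseudocounts of 1 and 0.01, no filter, a mean of at least 5 FPKM, quantile normalization, library totals, arrayWeights, no trend, no fold threshold, voom, a replicate block and each sample left out. The receptor separation under the 2 other scalings was chosen after seeing the data. Same-numbered samples hold different mice and their deviations correlated at 0.056, 0.024 and 0.006, so the numbers were taken not to pair them. Replicates of a group differed beyond sampling noise. The labels give no batch.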

Additional observations from a re-analysis of the deposited data

How the results depend on the processing

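Of the 10 receptors and adaptors, 2 were called. The number was 1 with the replicate block, in which same-numbered samples are paired, 3 with quantile normalization and with arrayWeights, and 1 to 2 without 1 of the 6 samples. Eda2r was called in all 16 alternatives, with log2 fold changes of 2.55 to 3.31. In the wider lists 3 genes were called, against 1 at a mean of at least 5 FPKM, where fewer genes are tested, 5 with no fold threshold, and 2 to 3 with each sample left out. Over all genes tested 139 were called, against 50 with the replicate block, 657 with arrayWeights, 254 with no fold threshold and 58 to 205 with each sample left out. Without the 2-fold threshold more genes qualify by construction. The causes of the other shifts were not tested.

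Signs turned only for genes that were not called. Casp8 was at -0.000209 with quantile normalization and at -0.0112 with library totals and -0.0103 with voom, and Edar was at 0.71 with arrayWeights. With each sample left out, log2 fold changes ranged from -0.0817 to 0.0565 for Cflar, -0.0480 to 0.0714 for Casp8, -0.25 to 0.70 for Tnfsf10, -0.72 to 0.0290 for Tnfsf12, -1.16 to 0.51 for Edar and -0.84 to 0.16 for Tnfsf9. The values of 23 named genes under these alternatives were counted together with that of Tnfrsf19 in the fit without the filter. Of these values, 331 kept their direction and their side of the threshold, 9 lost a call, 2 gained one and 14 changed sign. Of the 10 genes, Fas (1 to 46 per sample) and Tnfrsf19 (19 to 47) had the fewest reads. A mean of at least 5 FPKM left Fas and Tnfrsf21 untested.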
